A study of Homo sapiens with 12 samples.

Results

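The genes described here are 10 of the 19923 genes counted in the deposited tables: AKR1C1, AKR1C2, AKR1C3, NQO1, GCLM, GCLC, TXNRD1, SRXN1, NFE2L2 and KEAP1. They are the transcription factor NRF2 (gene NFE2L2), its inhibitor KEAP1, and genes for antioxidant enzymes and aldo-keto reductases that NRF2 is known to regulate. They were selected by gene symbol, with the rise of AKR1C3 in NGP cells already in view. For this reason the NGP response of the 10 genes, and the difference between the lines that contains it, is given below as a description without a p-value. Polyadenylated RNA was sequenced from 2 established lines of human neuroblastoma, SK-N-BE2 and NGP, both with amplified MYCN and a genotype labelled WT. The treatment was STM2457, a small-molecule inhibitor of the m6A RNA methyltransferase METTL3, at 12 µM for SK-N-BE2 but at 1 µM for NGP, and the control groups received DMSO. All 4 groups were kept for 6 days and had 3 replicates, 12 libraries in all. The labels do not say whether replicates were separate cultures, so p-values measure the spread between these samples only.

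In unstressed cells KEAP1 presents NRF2 to a CUL3 ubiquitin ligase and NRF2 is degraded. Electrophiles and oxidants modify cysteines of KEAP1, NRF2 then accumulates, pairs with small MAF proteins and binds antioxidant response elements near its target genes. Because this control acts on the protein, the NFE2L2 transcript is not a measure of NRF2 activity. AKR1C1, AKR1C2 and AKR1C3 form a cluster of closely related genes for NADPH-dependent enzymes that reduce steroids, prostaglandins and reactive carbonyls.

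The AKR1C genes lie side by side on chromosome 10 (GRCh38, positions of the deposited tables counted from 1). AKR1C1 spans 4963253 to 4983283 on the plus strand, AKR1C2 4987400 to 5018031 on the minus strand and AKR1C3 5035354 to 5107686 on the plus strand. NQO1 lies on chromosome 16 (69706996 to 69726668, minus strand), GCLM on chromosome 1 (93885199 to 93909456, minus strand) and GCLC on chromosome 6 (53497341 to 53616970, minus strand). TXNRD1 lies on chromosome 12 (104215779 to 104350307, plus strand) and SRXN1 on chromosome 20 (646615 to 653370, minus strand). NFE2L2 lies on chromosome 2 (177227595 to 177392697, minus strand) and KEAP1 on chromosome 19 (10486125 to 10503558, minus strand).

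The promoters of the AKR1C genes are shown because AKR1C3 rose in SK-N-BE2 while AKR1C1 and AKR1C2 fell. Whether these sequences have a part in that was not tested. The last 90 bases before each RefSeq start (GRCh38.p14, read 5′ to 3′ on the gene's strand) are given. Capitals mark ATTGG, the reverse complement of CCAAT, a motif picked after these sequences were seen.
AKR1C1 (chr10:4963325-4963414, plus strand): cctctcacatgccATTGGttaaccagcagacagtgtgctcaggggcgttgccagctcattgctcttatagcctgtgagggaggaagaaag
AKR1C2 (chr10:5003858-5003947, minus strand): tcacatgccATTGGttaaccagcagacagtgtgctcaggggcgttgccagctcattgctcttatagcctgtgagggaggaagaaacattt
AKR1C3 start 1 (chr10:5048691-5048780, plus strand): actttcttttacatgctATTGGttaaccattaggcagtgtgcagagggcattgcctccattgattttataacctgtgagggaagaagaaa
AKR1C3 start 2 (chr10:5094324-5094413, plus strand): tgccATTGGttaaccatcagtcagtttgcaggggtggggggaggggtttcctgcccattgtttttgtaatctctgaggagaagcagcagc
Over 250 bases before the start, AKR1C1 and AKR1C2 were identical at 96.5% of aligned positions. AKR1C3 start 1 matched AKR1C1 at 72.4% and AKR1C2 at 70.6%, and AKR1C3 start 2 matched them at 69.9% and 70.9%. The pair of AKR1C3 starts matched each other at 66.8%. ATTGG or CCAAT occurred in 16.6% of the 90-base windows of all 35116 RefSeq starts.

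The core of the antioxidant response element was searched as TGACNNNGC on both strands, in windows from 250 bases before to 50 bases after each RefSeq start. It was present in 13.3% of all 35116 windows. Among the 10 genes it was found at the GCLM start, at both TXNRD1 starts and at 1 of the 2 KEAP1 starts. The windows of AKR1C1, AKR1C2, AKR1C3, NQO1, GCLC, SRXN1 and NFE2L2 did not hold these letters. A match describes the sequence and is not a measured binding site, and elements farther from the start lie outside the windows. The matches that begin with GCTT and end with GTCA are shown because 3 genes share them, with the 9 core letters in capitals.
GCLM (chr1:93909431-93909494, minus strand): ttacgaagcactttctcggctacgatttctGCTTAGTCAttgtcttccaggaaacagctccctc
TXNRD1 start 2 (chr12:104286900-104286968, plus strand): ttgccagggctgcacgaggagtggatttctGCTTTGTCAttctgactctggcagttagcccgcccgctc
KEAP1 start 2 (chr19:10502772-10502832, minus strand): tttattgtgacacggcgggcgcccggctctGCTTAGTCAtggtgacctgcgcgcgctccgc
The core lies 34 to 26 bases before the start in GCLM, 102 to 94 in TXNRD1 and 31 to 23 in KEAP1.

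Library totals ran from 47242379 to 58159937 counted reads, with overlap between treated and control libraries of each line. The METTL3 transcript, whose protein is the drug's target, was 1.44-fold higher with STM2457 in SK-N-BE2 and 1.89-fold higher in NGP, in 3 of 3 libraries of each line. Of 9 adrenergic neuroblastoma markers, 8 reached 1 CPM (counts relative to library size, scaled by TMM) in every group. So did 4 of 6 mesenchymal markers, and 2 of 2 endothelial markers in SK-N-BE2 with DMSO. In that group the summed levels were 7450 to 9200 CPM (adrenergic), 893 to 989 CPM (mesenchymal) and 6.03 to 9.94 CPM (endothelial). By the file headers the input of each line lay in a folder of its own, and the headers do not say what the folders stand for. In comparisons of the lines any such batch, the dose and the line itself cannot be told apart. RNA was measured in bulk, so fewer cells with a transcript and less of it per cell cannot be told apart.

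AKR1C3 was higher with STM2457 in both lines, a rise that passed the test in SK-N-BE2, whereas AKR1C1 and AKR1C2 fell in SK-N-BE2. NQO1, GCLM, GCLC and KEAP1 were higher with STM2457 in all NGP libraries and did not pass the test in SK-N-BE2. TXNRD1 was higher in treated cells of both lines by nearly the same factor, and the NFE2L2 transcript was lower in both. In SK-N-BE2, 5 of the 10 genes passed the test, 2 higher and 3 lower, beside 54.7% of all 14013 genes tested (26.9% higher and 27.8% lower). A share of 5 in 10 is near that background. The median log2 change of the 10 genes was -0.06, against -0.02 over all genes. All treated libraries lay beyond all controls for 5 of the 10 genes, beside 62.2% of all genes (33.1% above and 29.1% below). In NGP 9 of the 10 genes had enough reads for the fit. Of all 13610 genes there, 41.7% passed the test (19.4% higher and 22.2% lower), and groups did not overlap for 54.7%. Because the choice of genes used that contrast, no count of calls is given for the 10 genes in NGP. The same holds for the difference between the responses, where 13.9% of all 14731 genes passed as lower in SK-N-BE2.

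**Figure D1:**
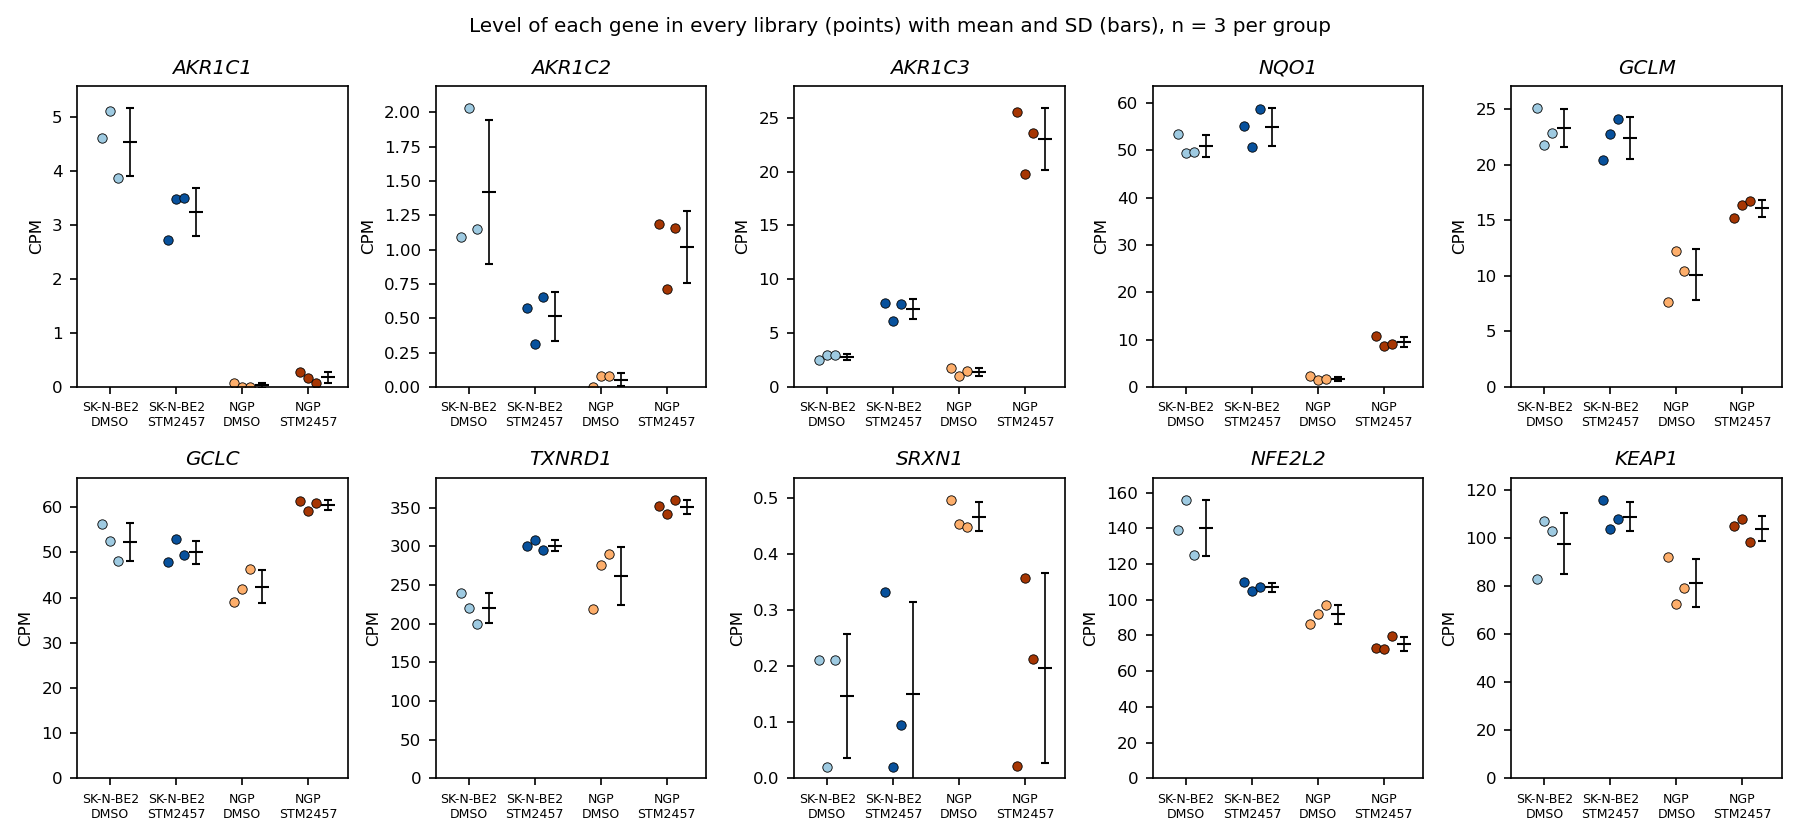
Level of each of the 10 genes in CPM (TMM scale, linear axis from 0) in the 12 libraries. Points are libraries and bars the mean and SD of 3 replicates. AKR1C3 is highest in the 3 treated NGP libraries (19.8 to 25.5 CPM), AKR1C1 and NQO1 are higher in SK-N-BE2 than in NGP, and SRXN1 rests on 1 to 25 reads per library.

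NFE2L2 encodes NRF2. Its transcript stood at 139, 156 and 125 CPM in the SK-N-BE2 DMSO libraries and at 110, 105 and 107 CPM with STM2457. Every treated library lay below every control, and the fall had a log2 change of -0.42 (SE 0.09, edgeR adjusted p 0.00137). In NGP the libraries held 86.4, 92.0 and 97.2 CPM with DMSO and 73.1, 72.7 and 79.9 CPM with STM2457, again without overlap, a log2 change of -0.29 (SE 0.10). The SK-N-BE2 response minus the NGP response was -0.13 (SE 0.13). Between the DMSO groups NFE2L2 was 1.54-fold higher in SK-N-BE2 (log2 0.62, SE 0.13, edgeR adjusted p 0.00158).

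KEAP1, the adaptor through which NRF2 is ubiquitinated, held 83.2, 107 and 103 CPM in SK-N-BE2 with DMSO and 116, 104 and 108 CPM with STM2457. The groups overlapped, and the log2 change of 0.12 (SE 0.10) did not pass the test (edgeR adjusted p 0.314). In NGP it held 92.2, 72.4 and 79.4 CPM with DMSO and 105, 108 and 98.5 CPM with STM2457. All treated NGP libraries lay above the controls, with a log2 change of 0.36 (SE 0.11). The difference between the responses was -0.22 (SE 0.16). The DMSO levels of the lines overlapped (log2 difference 0.28, SE 0.14, edgeR adjusted p 0.113), but it passed in the joint fit of 12 libraries (0.26, edgeR adjusted p 0.0469) and without NGP DMSO replicate 1 (0.39, edgeR adjusted p 0.0153).

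GCLC is the catalytic subunit of glutamate-cysteine ligase, which carries out the rate-limiting step of glutathione synthesis. In SK-N-BE2 it held 56.3, 52.5 and 48.1 CPM with DMSO and 47.8, 52.9 and 49.4 CPM with STM2457. The groups overlapped, and the log2 change of -0.10 (SE 0.09) did not pass the test (edgeR adjusted p 0.359). In NGP it held 39.1, 41.8 and 46.4 CPM with DMSO and 61.3, 59.2 and 61.0 CPM with STM2457, a log2 change of 0.52 (SE 0.10) with no overlap. The responses differed by -0.60 (SE 0.13). All SK-N-BE2 controls lay above the NGP controls, but the difference of 0.31 (SE 0.13) missed the threshold (edgeR adjusted p 0.0572). It passed under 5 alternative settings, with adjusted p from 0.00916 to 0.19 over all settings run.

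GCLM, the modifier subunit that makes the ligase more efficient, showed the same order with a larger NGP value. In SK-N-BE2 it held 25.1, 21.8 and 22.9 CPM with DMSO and 20.4, 22.8 and 24.1 CPM with STM2457. These groups overlapped (log2 fold change -0.09, SE 0.10, edgeR adjusted p 0.475). In NGP it held 7.68, 12.2 and 10.4 CPM with DMSO and 15.2, 16.4 and 16.7 CPM with STM2457, a log2 change of 0.67 (SE 0.17) with no overlap. Without NGP DMSO replicate 1, the lowest control, this value was 0.51. The responses differed by -0.75 (SE 0.20). In DMSO, GCLM was 2.32-fold higher in SK-N-BE2 than in NGP (log2 1.21, SE 0.19, edgeR adjusted p 0.000217), and the treated NGP libraries remained below every SK-N-BE2 library.

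TXNRD1 encodes the cytosolic thioredoxin reductase, which passes electrons from NADPH to thioredoxin. Its SK-N-BE2 libraries held 240, 220 and 200 CPM with DMSO and 301, 308 and 295 CPM with STM2457. The treated libraries all lay above the controls, with a log2 change of 0.42 (SE 0.09, edgeR adjusted p 0.00109). In NGP the values were 219, 276 and 290 CPM with DMSO and 352, 342 and 360 CPM with STM2457, a log2 change of 0.43 (SE 0.12) with no overlap. Without NGP DMSO replicate 1 it was 0.31. The difference between the responses was 0.00 (SE 0.14). DMSO levels overlapped between the lines (log2 -0.24, SE 0.14, edgeR adjusted p 0.163), but the difference passed in the joint fit (-0.25, edgeR adjusted p 0.04) and without NGP DMSO replicate 1 (-0.34, edgeR adjusted p 0.0146).

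SRXN1, which encodes sulfiredoxin, the enzyme that restores over-oxidised peroxiredoxins, could not be measured well. Of its 2698 exon bases, 2292 (85%) are shared with the overlapping gene AL121758.1, and reads that fit more than 1 gene were not counted. The 3 libraries together gave 24 reads in SK-N-BE2 with DMSO, 24 with STM2457, 71 in NGP with DMSO and 29 with STM2457. Single libraries ranged from 1 to 25 reads. The SK-N-BE2 value was -0.02 (SE 0.86, edgeR adjusted p 0.985), the NGP value -1.23 (SE 0.64) and the difference between the DMSO groups -1.61 (SE 0.60, edgeR adjusted p 0.0356). The last call was lost under 9 alternative settings, and no direction is read for SRXN1.

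NQO1 encodes a quinone reductase that is widely used as a readout of NRF2. Its level separated the lines in DMSO. The SK-N-BE2 libraries held 53.5, 49.4 and 49.6 CPM with DMSO and 55.2, 50.8 and 58.8 CPM with STM2457. These groups overlapped, and the log2 change of 0.07 (SE 0.09) did not pass the test (edgeR adjusted p 0.484). The NGP libraries held 2.23, 1.38 and 1.56 CPM with DMSO and 10.7, 8.66 and 9.13 CPM with STM2457. Each treated NGP library lay above each control, 5.52-fold in the fit (log2 2.46, SE 0.22). The responses differed by -2.38 (SE 0.20). Between the DMSO groups NQO1 was 29.7-fold higher in SK-N-BE2 (log2 4.89, SE 0.20, edgeR adjusted p 1.43e-08), and the treated NGP mean of 9.50 ± 1.07 CPM (SD, n = 3) stayed below the SK-N-BE2 DMSO mean of 50.9 ± 2.33 CPM (SD, n = 3).

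AKR1C3, which reduces androstenedione and prostaglandins, held 2.48, 2.92 and 2.97 CPM in SK-N-BE2 with DMSO and 7.77, 6.12 and 7.73 CPM with STM2457. The groups did not overlap, and AKR1C3 rose 2.52-fold (log2 1.33, SE 0.16, edgeR adjusted p 1.65e-05). The NGP libraries held 1.75, 1.03 and 1.45 CPM with DMSO and 25.5, 19.8 and 23.6 CPM with STM2457. Treated NGP cells thus had more AKR1C3 reads than any other group. The NGP rise, for which the genes were chosen, was 16.3-fold (log2 4.03, SE 0.22), and the responses differed by -2.68 (SE 0.26). In DMSO the SK-N-BE2 libraries all lay above the NGP libraries, 2.00-fold in the fit (log2 SE 0.27).

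AKR1C1, an enzyme that inactivates progesterone, moved against AKR1C3 in SK-N-BE2. Its libraries held 4.62, 5.12 and 3.87 CPM with DMSO and 2.72, 3.49 and 3.51 CPM with STM2457. All treated libraries lay below the controls, and AKR1C1 fell with a log2 change of -0.52 (SE 0.18, edgeR adjusted p 0.0252). The call was lost in the joint fit of all 12 libraries (edgeR adjusted p 0.242) and without SK-N-BE2 DMSO replicate 1 (0.0506), DMSO replicate 2 (0.0746) or STM2457 replicate 1 (0.111). In NGP the reads were 4, 0 and 0 with DMSO and 13, 8 and 4 with STM2457, too few for the test. The ratio of the summed reads, scaled by library size, was 6.37 (95% interval 2.20 to 25.2 by counting error only), and the CPM ranges of the groups overlapped. The fitted difference between the responses was -3.11 (SE 0.86) and -6.68 without NGP DMSO replicate 1, the only NGP control with AKR1C1 reads.

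AKR1C2, which reduces dihydrotestosterone, gave opposite directions in the lines. In SK-N-BE2 it held 1.09, 2.03 and 1.15 CPM with DMSO and 0.574, 0.314 and 0.652 CPM with STM2457. The groups did not overlap, and AKR1C2 fell with a log2 change of -1.50 (SE 0.37, edgeR adjusted p 0.0039). In NGP the reads were 0, 4 and 4 with DMSO and 56, 34 and 60 with STM2457. The ratio of summed, scaled reads was 19.1 (95% interval 9.46 to 45.1 by counting error only), and the fitted log2 fold change was 4.22 (SE 0.64). The responses differed by -5.71 (SE 0.76), with all treated libraries below the controls in SK-N-BE2 and above them in NGP. Whether some of the NGP reads of AKR1C2 came from AKR1C3 transcripts was not tested.

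Without STM2457, AKR1C1 and AKR1C2 were transcripts of SK-N-BE2 rather than of NGP. In DMSO, AKR1C1 gave 717 reads in SK-N-BE2 and 4 in NGP, a fitted log2 difference of 7.31 (SE 0.59, edgeR adjusted p 1.68e-06) whose size depends on those 4 reads. AKR1C2 gave 222 and 8 reads (log2 4.70, SE 0.64, edgeR adjusted p 8.64e-05). Of the 9 genes other than AKR1C3 tested between the DMSO groups, 6 passed, 5 higher in SK-N-BE2 (AKR1C1, AKR1C2, NQO1, GCLM and NFE2L2) and 1 lower (SRXN1). The background was 64.8% of 14336 genes, 33% higher and 31.8% lower. The DMSO libraries enter these levels and the responses, so the values are not independent of each other.

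**Figure D2:**
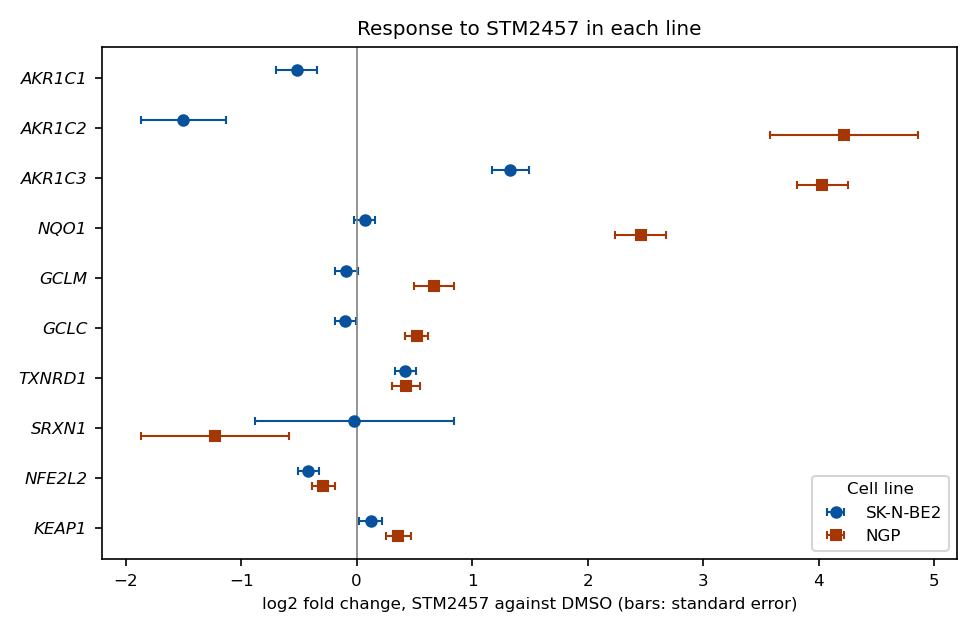
log2 change of STM2457 against DMSO for the 10 genes, in SK-N-BE2 (circles) and NGP (squares), with bars for the standard error. AKR1C2 lies on opposite sides of 0 in the lines, TXNRD1 and NFE2L2 lie close together, and AKR1C1 has no NGP value because it had too few reads there.

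The makeup of the AKR1C reads changed in SK-N-BE2. AKR1C3 took 32.2% ± 4.39 (SD, n = 3) of the reads of the 3 genes with DMSO and 65.6% ± 4.32 (SD, n = 3) with STM2457. AKR1C1 went from 51.9% to 29.8% and AKR1C2 from 16.0% to 4.61%. In NGP, AKR1C3 already held 94.5% ± 1.44 (SD, n = 3) with DMSO and 95.1% ± 0.584 (SD, n = 3) with STM2457. The NGP share of AKR1C2 was 4.09% ± 3.68 (SD, n = 3) with DMSO and 4.18% ± 0.639 (SD, n = 3) with STM2457. Behind these shares stood 1379 reads with DMSO and 1724 with STM2457 for SK-N-BE2, and 226 and 3540 for NGP. When the reads of the 3 genes were added into 1 feature, SK-N-BE2 had a log2 change of 0.29 that did not pass the test (edgeR adjusted p 0.0768), since AKR1C3 and the other genes moved in opposite directions.

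**Figure D3:**
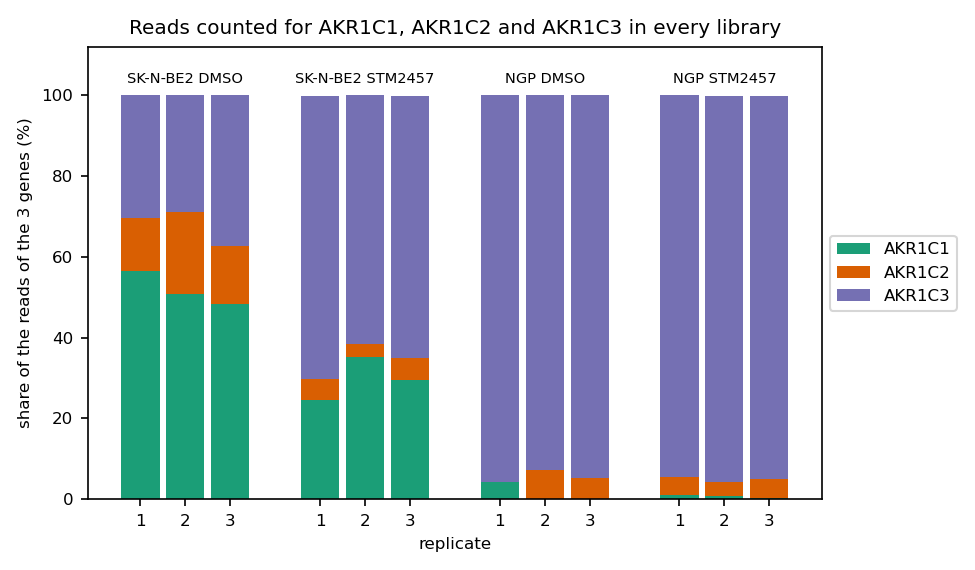
Share (%) of the reads of AKR1C1, AKR1C2 and AKR1C3 that each gene takes in each of the 12 libraries. In SK-N-BE2 the AKR1C3 share is larger in all 3 treated libraries than in all 3 controls, and in NGP it is near 95% in both groups.

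Reads that map to several places were not counted, and the AKR1C genes share long stretches of sequence. In the main transcript of AKR1C2, 47.3% of windows of 50 bases, 27.8% of 100 bases and 17.2% of 150 bases occur identically in another gene of the AKR1 family. For AKR1C1 these shares were 22.7%, 12.6% and 7.91%, and for AKR1C3 18.6%, 7.82% and 2.12%. The read length is not given in the sources used here. The levels of the 3 genes relative to each other are therefore uncertain, most of all for AKR1C2. A fold change of 1 gene compares the same countable bases in both groups, but reads of 1 gene assigned to another could alter it. Such assignment was not tested. No exon of AKR1C1, AKR1C2 or AKR1C3 overlaps another counted gene.

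**Figure D4:**
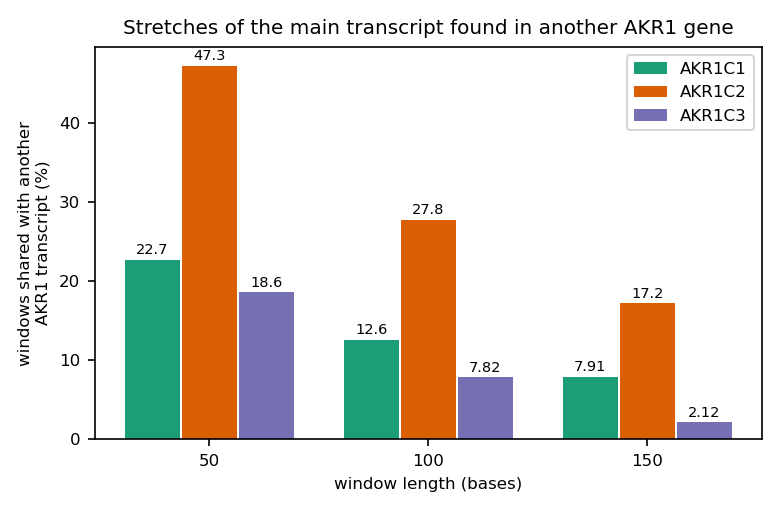
Share (%) of windows of 50, 100 and 150 bases in the main transcript of AKR1C1, AKR1C2 and AKR1C3 that occur identically in a transcript of another AKR1 gene. AKR1C2 has the largest share at each length (47.3%, 27.8% and 17.2%).

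Per exon length (reads per kilobase of exon and library size, RPKM), TXNRD1 was the most abundant of the 10 genes in each group, from 32.8 RPKM in SK-N-BE2 with DMSO to 52.3 RPKM in NGP with STM2457. KEAP1 followed at 22.8 to 30.5 RPKM, and then NFE2L2 at 13.3 to 24.8 RPKM. In SK-N-BE2 with DMSO the libraries of neighbours among these 3 genes overlapped. NQO1 came next in SK-N-BE2 (17.1 RPKM with DMSO and 18.5 RPKM with STM2457, where it overlapped NFE2L2). In the NGP controls it stood at 0.58 RPKM, below GCLC (4.92 RPKM) and GCLM (1.86 RPKM). AKR1C3 stood at 0.36 RPKM in the NGP controls, below NQO1, and at 5.87 RPKM in treated NGP, below GCLC and above NQO1 (3.20 RPKM) and GCLM (2.96 RPKM), whose libraries overlapped. In SK-N-BE2 AKR1C3 remained below GCLM, at 0.713 RPKM with DMSO and 1.84 RPKM with STM2457, and AKR1C1 and AKR1C2 stayed under 1 RPKM in all 4 groups. The length used covers all exons of a gene, 3911 bases for AKR1C3, whose main transcript has 1186 bases. The order of the genes depends on this choice of length and on reads lost to multi-mapping.

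The 5 genes whose profile over the 12 libraries came closest to AKR1C3 were COL3A1, MAP2K6, FN1, SYT2 and DKK1. Closeness was the root mean square difference of log2 CPM, each gene centred on its own mean, and ran from 0.33 for COL3A1 to 0.54 for DKK1 over genes tested in both lines. COL3A1, a fibrillar collagen, had log2 changes of 1.11 (SK-N-BE2) and 4.59 (NGP), and FN1, fibronectin, of 1.70 and 3.89. The values of DKK1, a secreted WNT antagonist, were 0.84 and 2.69. These 5 genes were picked for closeness to AKR1C3, so their rise in NGP follows from that choice. The other NRF2 genes tested in both lines had distances from 1.35 for TXNRD1 (rank 1353) to 2.53 for SRXN1 (rank 12268). NQO1 stood at 2.15 (rank 11570). Ranks start at the closest gene, among the 12952 genes tested in both lines without mitochondrial and Y-linked ones. AKR1C1 was not tested in NGP and has no distance. The distance counts level differences between the lines as well as responses, so it does not rank the genes by response alone. NQO1 had a log2 change of 2.46 in NGP and a log2 difference of 4.89 between the DMSO groups. For TXNRD1 these values were 0.43 and -0.24. FN1 belongs to a list of 6 mesenchymal markers whose summed level in NGP was 181 to 232 CPM with DMSO and 666 to 708 CPM with STM2457, against 893 to 989 CPM and 855 to 927 CPM for SK-N-BE2. FN1 itself had means of 20.9 and 309 CPM in NGP (DMSO and STM2457) and of 26.6 and 88.3 CPM in SK-N-BE2. It is part of each sum and was picked for its likeness to AKR1C3, so the sums do not stand apart from that choice. The part of the change in these sums in the NGP values of AKR1C3 and the other genes was not tested.

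A wider set of 132 genes in 7 lists covers the surrounding pathways: NRF2 regulators, glutathione, thioredoxin, NADPH supply, detoxification, other aldo-keto reductases and superoxide enzymes. In SK-N-BE2, 31 of 114 tested genes rose and 37 fell, 59.6% beside 54.7% of all genes, with a median log2 change of -0.01. In NGP, 37 of 106 rose and 19 fell, 52.8% beside 41.7% of all genes, with a median of 0.22 against -0.03 over all genes. The response itself differed between the lines for 50 of 114 genes, 37 of them lower in SK-N-BE2 and 13 higher, 43.9% beside 30.9% of all genes. Of the 106 genes tested in both lines, 16 rose in both and 11 fell in both, beside 10.5% and 10.8% of all genes tested in both. Another 7 fell in SK-N-BE2 and rose in NGP, beside 2.25% of all genes tested in both. By edgeR 0 of the 106 did the reverse, beside 2.72% of all genes, and the count was also 0 at an unadjusted p under 0.05 and by DESeq2.

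**Figure D5:**
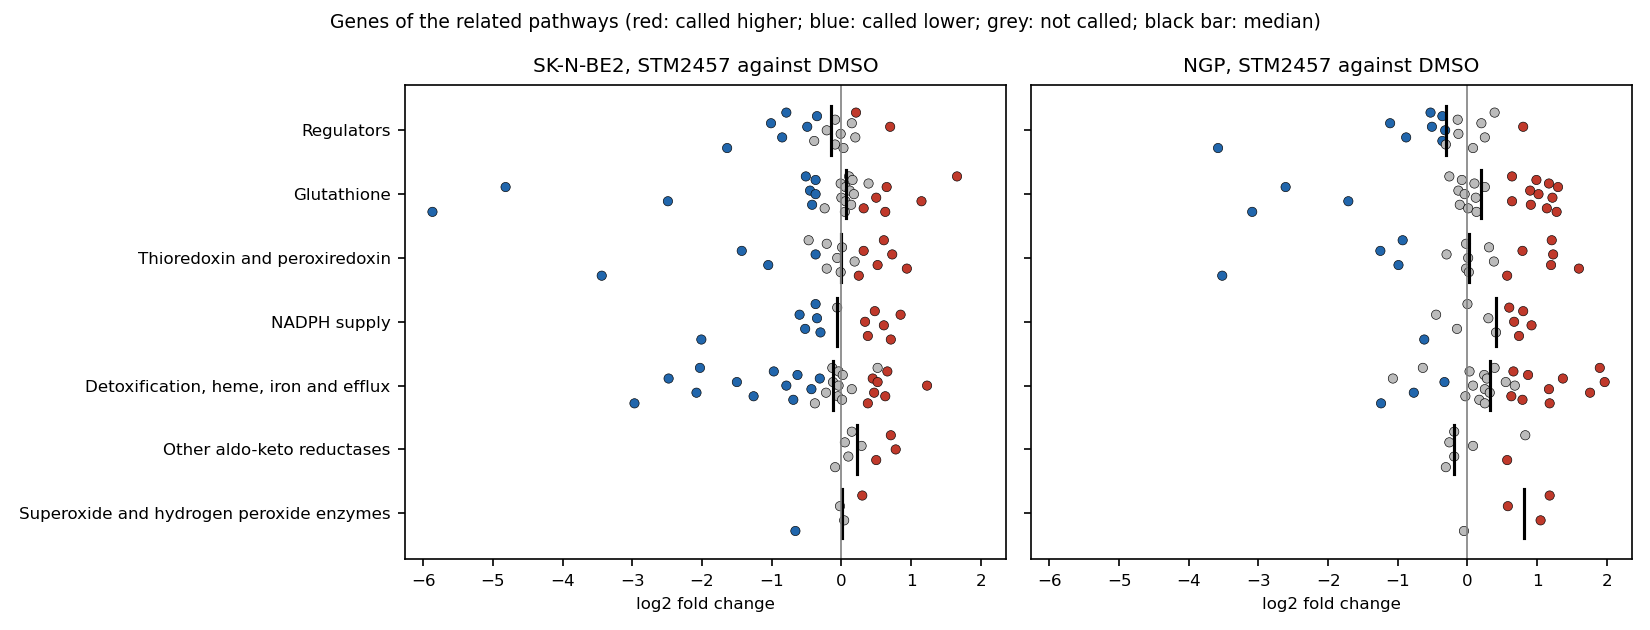
log2 change of each tested gene of the 7 lists in SK-N-BE2 (left) and NGP (right). Red points passed the test as higher, blue as lower, grey did not pass, and black bars are list medians. CHAC1 and SLC7A11 are the lowest points of the glutathione list in both lines.

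Among the NRF2 regulators, 2 of 16 rose and 6 fell in SK-N-BE2, and 1 rose and 8 fell in NGP. NFE2L1, a relative of NRF2 that controls proteasome genes, fell in both lines, from 526 ± 30.1 to 268 ± 6.10 CPM in SK-N-BE2 (SD, n = 3; log2 -1.01, edgeR adjusted p 5.77e-07) and from 438 ± 10.9 to 203 ± 1.68 CPM in NGP (SD, n = 3; log2 -1.11, edgeR adjusted p 3.88e-05). DPP3, which can bind KEAP1 in place of NRF2, rose in both (log2 0.70 and 0.80, edgeR adjusted p 1.69e-05 and 0.00228). MAFF, a small MAF partner of NRF2, fell in SK-N-BE2 (log2 -1.64, edgeR adjusted p 1.4e-07) and had 0.25 in NGP (edgeR adjusted p 0.467). The other small MAF genes, not picked by the naming rule, differed: MAFK was called lower in NGP (log2 -3.58) but not in SK-N-BE2 (-0.39). Of the MAFK exon bases, 18.1% are shared with TMEM184A. MAFG was called lower in SK-N-BE2 (-0.49) but not in NGP (-0.14). SQSTM1, the autophagy receptor p62 that captures KEAP1, fell in SK-N-BE2 (log2 -0.85, edgeR adjusted p 8.62e-06) and had 0.08 in NGP, with 22.4% of its exon bases shared with overlapping genes. BACH2 and PALB2 fell in NGP (log2 -0.88 and -0.53, edgeR adjusted p 0.00271 and 0.00772). The rise of FBXW11 in SK-N-BE2 (log2 0.21, edgeR adjusted p 0.0405) was lost under 6 alternative settings.

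In the glutathione list 6 of 26 genes rose and 8 fell in SK-N-BE2 (53.8% called, near the 54.7% of all genes). In NGP 11 of 24 rose and 3 fell (58.3%, beside 41.7% of all genes). The genes that supply cystine fell in both lines. SLC7A11, the cystine importer and a known NRF2 and ATF4 target, fell from 130 ± 10.1 to 4.70 ± 0.46 CPM in SK-N-BE2 (SD, n = 3; log2 -4.82, edgeR adjusted p 4.32e-12) and from 98.6 ± 28.1 to 16.1 ± 1.64 CPM in NGP (SD, n = 3; log2 -2.61, edgeR adjusted p 6.03e-05). Its partner SLC3A2 fell too (log2 -2.49 and -1.71, edgeR adjusted p 3.8e-09 and 3.39e-05). CHAC1, which degrades glutathione, fell likewise (-5.87 and -3.09, edgeR adjusted p 4.32e-12 and 4.04e-06). GSR, which regenerates reduced glutathione, rose in both (log2 0.63 and 0.99, edgeR adjusted p 2.03e-05 and 0.000103), as did GLRX (1.66 and 1.22, edgeR adjusted p 6.55e-07 and 0.000522) and CHAC2 (1.15 and 0.64, edgeR adjusted p 1.72e-05 and 0.00779). The glutathione transferases GSTT2B and GSTK1 rose in NGP (log2 1.17 and 1.02, edgeR adjusted p 0.000421 and 0.00472) with values of 0.16 and 0.00 in SK-N-BE2, and GSTT2B has a near-identical neighbour that makes its count uncertain.

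In the thioredoxin and peroxiredoxin list 6 of 17 genes rose and 4 fell in each line. These 58.8% stood beside 54.7% of all genes in SK-N-BE2 and 41.7% in NGP. PRDX1, a peroxidase and NRF2 target, rose in both (log2 0.73 and 1.60, edgeR adjusted p 1.03e-05 and 8.25e-05), and 25.2% of its exon bases are shared with MMACHC. SESN3 rose in both (log2 0.94 and 1.21, edgeR adjusted p 6.65e-06 and 0.00391) and SESN1 in SK-N-BE2 (0.61, edgeR adjusted p 0.000134). In NGP SESN1 had 0.31 (edgeR adjusted p 0.069) with all treated libraries above the controls, and it passed with DESeq2 (adjusted p 0.0271) and in the joint edgeR fit (adjusted p 0.0133). Its difference between the lines did not pass (0.31, edgeR adjusted p 0.108). SESN2, a stress-induced relative of SESN1 and SESN3, fell in both (log2 -3.44 and -3.52, edgeR adjusted p 6.42e-11 and 1.48e-06). PRDX5 fell in both (log2 -1.05 and -0.93, edgeR adjusted p 1.27e-06 and 0.00879), as did TXNL1 (-0.37 and -0.99, edgeR adjusted p 0.00244 and 0.000149). TXNIP, which binds and inhibits thioredoxin, fell in SK-N-BE2 (log2 -1.43, edgeR adjusted p 8.44e-08) and rose in NGP (1.23, edgeR adjusted p 0.00691), a difference of -2.64 (SE 0.30, edgeR adjusted p 2.09e-05).

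Of the NADPH-supplying enzymes, 6 of 13 rose and 6 fell in SK-N-BE2 (92.3% called, beside 54.7% of all genes). In NGP 5 of 11 rose and 1 fell (54.5%, beside 41.7% of all genes). PGD, of the pentose phosphate pathway, rose in both lines (log2 0.71 and 0.60, edgeR adjusted p 5.54e-06 and 0.00267), and so did MTHFD1 (0.85 and 0.74, edgeR adjusted p 3.74e-06 and 0.000364) and NNT (0.61 and 0.67, edgeR adjusted p 0.000151 and 0.00568). TKT rose in NGP (log2 0.80, edgeR adjusted p 0.00158) and fell in SK-N-BE2 (-0.30, edgeR adjusted p 0.00626, lost in the joint fit at 0.0596). IDH1 fell in both (log2 -2.01 and -0.62, edgeR adjusted p 6.28e-09 and 0.00145). ME1 and ME3 fell in SK-N-BE2 (log2 -0.60 and -0.52, edgeR adjusted p 0.000261 and 0.000837) and were not tested in NGP, where they had almost no reads.

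Of the detoxification, heme, iron and efflux genes, 7 of 30 rose and 12 fell in SK-N-BE2 (63.3%, beside 54.7% of all genes). In NGP 10 of 27 rose and 3 fell (48.1%, beside 41.7% of all genes). HMOX1, the inducible heme oxygenase, fell in SK-N-BE2 from 10.1 ± 0.51 to 3.63 ± 0.71 CPM (SD, n = 3; log2 -1.50, edgeR adjusted p 3.9e-06). In NGP it rose from 0.994 ± 0.487 to 3.36 ± 0.155 CPM (SD, n = 3; log2 1.76, edgeR adjusted p 0.00321), and the responses differed by -3.25 (SE 0.36, edgeR adjusted p 1.84e-05). PIR, an NRF2 target, rose in NGP (log2 1.97, edgeR adjusted p 1.69e-05) and fell in SK-N-BE2 (-0.43, edgeR adjusted p 0.00339), a difference of -2.38 (SE 0.15, edgeR adjusted p 2.19e-07). The ferritin light chain FTL rose in NGP (log2 0.87, edgeR adjusted p 0.00302) and fell in SK-N-BE2 (-0.63, edgeR adjusted p 0.000337), and its processed pseudogenes make its count uncertain. BLVRA, biliverdin reductase, rose in both (log2 0.52 and 1.37, edgeR adjusted p 0.00264 and 0.000762), as did HMOX2 (0.66 and 0.66, edgeR adjusted p 0.000316 and 0.0087). SLC48A1, a heme transporter, and CYB5R1 fell in both (log2 -2.08 and -1.24 for SLC48A1, -0.79 and -0.77 for CYB5R1, with edgeR adjusted p between 1.34e-09 and 0.008). CBR3 and ABCC1 rose in SK-N-BE2 (log2 1.23 and 0.63, edgeR adjusted p 7.6e-06 and 0.000206), EPHX2 fell there (-0.97, edgeR adjusted p 3.08e-06), and the NGP fall of ALDH3A2 (-0.33, edgeR adjusted p 0.0472) was lost under 8 alternative settings.

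Among the other aldo-keto reductases 3 of 8 rose in SK-N-BE2 (37.5% called, beside 54.7% of all genes). In NGP 1 of 7 rose (14.3%, beside 41.7% of all genes). AKR1A1 and KCNAB1 rose in SK-N-BE2 (log2 0.50 and 0.78, edgeR adjusted p 0.000197 and 0.000292) and AKR7A2 in NGP (0.57, edgeR adjusted p 0.0145, lost without NGP DMSO replicate 3 at 0.0561 and STM2457 replicate 2 at 0.0516). Of the superoxide and hydrogen peroxide enzymes, 1 of 4 rose and 1 fell in SK-N-BE2, and 3 of 4 rose in NGP. SOD2 rose in both lines (log2 0.30 and 0.58, edgeR adjusted p 0.0104 and 0.00209), with the SK-N-BE2 call lost without STM2457 replicate 2 (0.0695). SOD1 and CAT rose in NGP (log2 1.18 and 1.05, edgeR adjusted p 0.000282 and 0.000263) and had -0.02 and 0.04 in SK-N-BE2. CCS, the copper chaperone of SOD1, fell in SK-N-BE2 (log2 -0.66, edgeR adjusted p 0.000107) and had -0.05 in NGP.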

How the data were processed

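The authors ran featureCounts 2.0.5, per the file headers, with the paired option over protein-coding exons of GENCODE 33 (GRCh38), summed by gene name, without a strand option and without multi-mapping reads. The deposited values are whole-number counts, not normalized. Mates were counted as separate reads, up to 2 per fragment, which makes counting intervals too narrow. Per the submitters' processing notes, FastQC 0.11.5, Trimmomatic 0.36, HISAT2 2.1.0 and Subread 1.5.3 were used, a version of the counter that differs from the headers.

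Quasi-likelihood tests were run in edgeR 4.0.16 under R 4.3.3, per line on 6 libraries, between the DMSO groups on 6 and for the difference between responses as a contrast over 12. Genes passed filterByExpr at a minimum count of 10, with TMM scaling and Benjamini-Hochberg adjustment over all genes tested at 0.05. Standard errors derive from the fold change and its F statistic. The fits were tested on simulated counts. RPKM used the exon lengths of the files. Promoters came from RefSeq (GRCh38.p14), where all 10 genes matched, and transcripts from GENCODE 44. Exon overlaps used the GENCODE 33 exons of the deposited counts.

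The members, lists and tests were chosen with earlier results of these data known. Apart from MAFK and MAFG, pathway genes were named, up to 3 per list, line and direction, if called, at 10 CPM or more in the higher group and without overlap of replicates. A gene that met this rule is not reported here by name. Of 132 list genes, 130 were matched, and the others were not analysed here. Alternatives were DESeq2 1.42.0, DESeq2 or upper-quartile scaling, no filter, a mean of 1 CPM, each library left out, a replicate block, a joint fit, halved counts and summed AKR1C counts.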

Additional observations from a re-analysis of the deposited data

Results flagged for a closer look

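Several pathway genes responded differently in the lines, by edgeR's test of the difference (SK-N-BE2 response minus NGP response, log2 scale, all 12 libraries). Lower in SK-N-BE2 were HMOX1 (-3.25), CHAC1 (-2.76), TXNIP (-2.64), PIR (-2.38), SLC7A11 (-2.20), MAFF (-1.88), FTL (-1.49), IDH1 (-1.38), SOD1 (-1.19), TKT (-1.09), GSTK1 (-1.01), GSTT2B (-1.0), CAT (-0.99), SQSTM1 (-0.92), PRDX1 (-0.86), BLVRA (-0.84), SLC48A1 (-0.83), SLC3A2 (-0.77) and GSR (-0.35). Higher in SK-N-BE2 were CBR3 (1.88), BACH2 (1.04), KCNAB1 (0.98), AKR1A1 (0.77), TXNL1 (0.63), PALB2 (0.57) and FBXW11 (0.36). The genes were named for their calls within the lines, so these differences are not a sample of all pathway genes. The FBXW11 difference was lost under 13 alternative settings and the GSR difference under 7. AKR1C2 was below all controls in the treated SK-N-BE2 libraries and above all controls in the treated NGP libraries (-5.71). This difference was not tested because the NGP response entered the choice of the genes. A share of AKR1C3 transcripts among the NGP reads of AKR1C2 was not tested either.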

How the results depend on the processing

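The numbers of genes called stayed within 1.5 times their value under each alternative, apart from the 10 genes in NGP, where 8 passed the threshold, 5 without NGP STM2457 replicate 1 and 4 without NGP STM2457 replicate 3. With a library left out, the genes called among the 10 numbered 4 to 5 in SK-N-BE2, 4 to 8 in NGP, 5 to 6 for the difference and 5 to 7 between the DMSO groups. The pathway genes called numbered 61 to 71 in SK-N-BE2, 50 to 72 in NGP (72 without NGP DMSO replicate 1) and 41 to 68 for the difference. Of the tested values of the 10 genes under the alternatives, 250 kept direction and side of the threshold, 14 lost and 9 gained a call, 2 called values reversed and 5 that had not passed changed sign, all of SRXN1 in SK-N-BE2 (0.02 to 0.48 against -0.02). Of the described values, 3 moved beyond the replicate spread and 1 changed sign, the SRXN1 difference (-0.13 against 1.22), and the TXNRD1 difference of 0.00 ran from -0.08 to 0.10. The called values that reversed were AKR1C1 and AKR1C2 in SK-N-BE2, at 0.29 when the AKR1C reads were summed, a feature that contains AKR1C3. Replicate numbers did not pair the samples: for SK-N-BE2, same-numbered libraries had correlations between -0.163 and 0.142, and for NGP between -0.223 and 0.109. With a replicate block, 5 of the 10 genes passed in SK-N-BE2 and 5 between the DMSO groups. Of the pathway genes, 67 passed in SK-N-BE2, 54 in NGP and 43 for the difference. Depth limits AKR1C1 and AKR1C2 in NGP and SRXN1 in all groups.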
